A study of Mus musculus with 10 samples.

Results

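Hemidesmosomes are the junctions that fasten the basal cells of stratified epithelia to the basement membrane. The receptor at their centre is integrin alpha 6 beta 4, which binds laminin-332 outside the cell and the plakin linker proteins inside it. The transmembrane collagen XVII joins the receptor, the plakins plectin and BPAG1 (dystonin) tie it to keratin filaments, and collagen VII forms the anchoring fibrils beneath. In the normal lung such junctions are known from basal cells of the large airways.

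The 9 genes described here are those of this anchoring complex, with Itga3, a laminin receptor of focal contacts, beside them. They encode integrin chains (Itga6, Itgb4 and Itga3), laminin chains (Lama3 and Lamb3), collagens (Col17a1 and Col7a1) and plakins (Dst and Plec). They were chosen by name, and their 21 probes were found by pairing the accessions in the array files with gene symbols. Where a gene had more than 1 probe, the one brightest on average over the 10 arrays stood for it and is called its representative probe. The members are 9 of 19092 genes, and their probes 21 of the 41174 on the array. All 9 representative probes were well above background on all 10 arrays, as were 20 of the 21 probes.

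Expression was measured on one-colour Agilent arrays in 5 wild type (WT) lungs and 5 lung squamous cell carcinomas (SCC), 1 array each, all from B6.129 mice aged 13 months. WT mice carried floxed Lkb1 alleles (Lkb1f/f) without Cre, and SCC came from CCSPiCreLkb1f/f mice, which carry the same alleles plus an iCre driven by the promoter of the club cell gene CCSP. RNA was taken from the whole lung or the whole tumour, so the comparison asked which transcripts differ between an Lkb1-deficient squamous tumour and the lung as a whole. The labels name no litter or cage, and no statement in them says that the 5 tumours came from 5 mice, so p-values measure the spread between these samples.

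The arrays were checked with cell type markers before the members were read. All 7 basal and squamous epithelium markers were called higher in SCC, and Pkp1 and Dsg3 among them were not well above background on any WT array. Their summed level, the log2 of the summed linear signal, was 8.41 to 8.89 in WT and 16.39 to 18.79 in SCC. SCC replicate 2 had the lowest of these sums, 16.39, and the other 4 SCC arrays were between 18.56 and 18.79. SCC replicate 5 stood apart in another way, with 90.2% of probes well above background against 71.0% to 74.5% on the other 9 arrays. Of 7 endothelial markers 6 were called lower in SCC (summed level 17.09 to 17.38 in WT and 14.69 to 15.68 in SCC), as were 5 of 6 alveolar type 1 markers with a probe (18.27 to 18.57 and 17.34 to 17.83) and 3 of 6 fibroblast markers (16.67 to 16.88 and 16.27 to 16.72). The fibroblast markers went both ways, since 2 of the others passed as higher by less than 2-fold, and their summed ranges overlapped. Club and ciliated cell markers were called lower in 3 of 6 (19.26 to 19.74 and 17.20 to 19.33). Of 6 cardiac muscle markers 5 were called lower, with sums that were uneven among the WT lungs (13.22 to 16.79) and even in SCC (13.05 to 13.30). In whole tissue, fewer cells of a type and less RNA per cell cannot be told apart, and the part of these marker shifts in the results for the members was not tested.

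The members did not move together. Col17a1, Itgb4 and Col7a1 were called higher in SCC (adjusted p below 0.05 in limma over all tested probes and at least a 2-fold difference), and Dst was called lower by its representative probe. Thus 3 of 9 members were called higher, where 11.6% of the 15582 tested genes were, and 1 of 9 lower, where 13.4% were. On the adjusted p alone 8 of 9 members passed, 5 higher and 3 lower, against 53.9% of tested genes (25.4% higher and 28.4% lower). The groups did not overlap for 7 of 9 members, against 41.4% of tested genes. The median difference (SCC minus WT, log2 units) was 0.38 over the members and -0.038 over all tested genes. With SCC replicate 2 left out, or SCC replicates 2 and 5 together, 3 members were again called higher and 1 lower. The share of tested genes called in those fits is not given here. Over the 10 fits that each left out 1 array, 6400 to 8221 probes were called, against 6954 with all arrays.

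**Figure D1:**
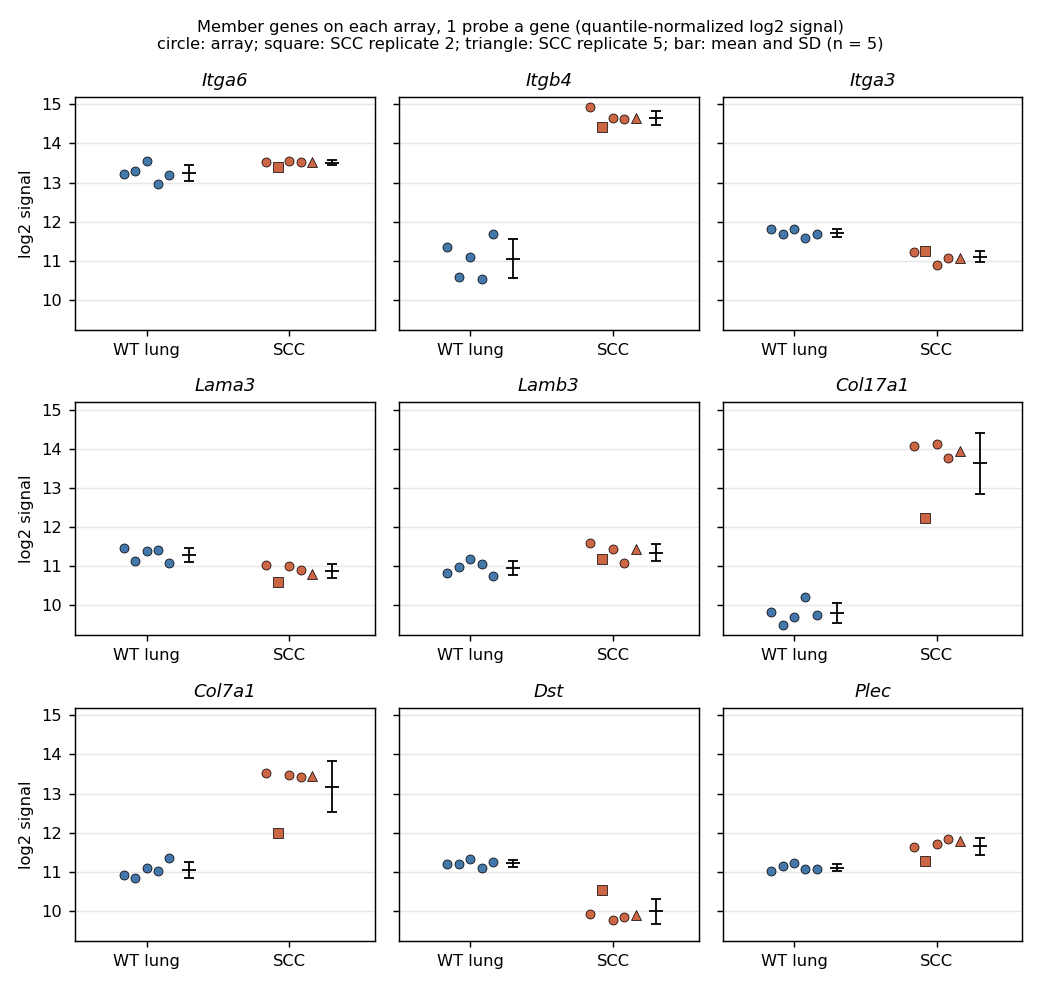
Quantile-normalized log2 signal of the representative probe of each member gene on the 5 WT lung and 5 SCC arrays, with the mean and SD of each group (n = 5). Itgb4, Col17a1 and Col7a1 lie higher in SCC by 3.61, 3.83 and 2.13, and SCC replicate 2 (square) is the lowest SCC array for 6 of 9 genes.

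For Dst the direction depended on the probe, and the gene's start sites are shown here for that reason. The RefSeq promoter table of GRCm38.p6 lists a pair of starts for Dst that lie 148665 bases apart on the plus strand of chromosome 1. The 250 bases before each start are printed 5′ to 3′, with the GC box GGGCGG in capitals. The table does not say which transcript begins at which start.

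Dst, outer start, chr1:34011345-34011594, plus strand: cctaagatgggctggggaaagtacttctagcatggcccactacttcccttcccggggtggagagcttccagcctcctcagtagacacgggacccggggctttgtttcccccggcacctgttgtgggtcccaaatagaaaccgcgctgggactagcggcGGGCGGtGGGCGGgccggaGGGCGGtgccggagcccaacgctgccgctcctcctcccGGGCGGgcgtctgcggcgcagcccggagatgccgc
Dst, inner start, chr1:34160010-34160259, plus strand: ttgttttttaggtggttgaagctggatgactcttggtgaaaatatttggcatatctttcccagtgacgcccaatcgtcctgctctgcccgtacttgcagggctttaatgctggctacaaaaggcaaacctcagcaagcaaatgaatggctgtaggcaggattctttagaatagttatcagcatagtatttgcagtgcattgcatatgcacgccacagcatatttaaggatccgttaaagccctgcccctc

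The window at the outer start was 68.8% G and C and held 4 GC boxes (92, 85, 73 and 35 bases before the start), whereas the window at the inner start was 45.2% G and C and held 0. The median over all 32851 windows in the table was 52.4%. Of those windows, 32.7% held the GC box on either strand.

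Dst was measured by 5 probes, annotated to 3 RefSeq transcript records. No probe sequences were at hand, so which transcripts each probe detects was not checked. Its products are known as an epithelial form that sits in the hemidesmosome (BPAG1e), a neuronal form and a muscle form. RefSeq names NM_010081 as isoform e, the epithelial one, while the array files give only the accession. What follows for the single probes is a description, since the contrast between them was picked out after their values had been seen.

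Both NM_010081 probes were far higher in every SCC. A_51_P489996 was at 7.28, 7.27, 7.48, 7.10 and 7.14 on WT arrays 1 to 5 and at 11.99, 11.31, 12.28, 11.76 and 12.27 on SCC arrays 1 to 5 (log2 signal). This was a difference of 4.67 (SE 0.19), or 25.4-fold. No SCC array came near the WT range, and SCC replicate 2 was the lowest of the 5.

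The other NM_010081 probe, A_52_P552955, was at 4.11, 4.34, 4.05, 4.41 and 4.13 in WT, where 3 of 5 arrays were well above background, and at 12.27, 11.47, 12.50, 11.94 and 12.32 in SCC. Its fitted difference was 7.89 (SE 0.19), and 5.04 after normexp background correction, which gave 3.82 for A_51_P489996. With WT near the background, no fold is given for it.

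The representative probe moved the opposite way. A_51_P300434, annotated to NM_134448, was at 11.20, 11.19, 11.33, 11.10 and 11.25 in WT and at 9.91, 10.54, 9.76, 9.83 and 9.88 in SCC. It fell by 1.23 on the log2 scale (SE 0.15, adjusted p 0.000128, exact permutation p 0.00794, the smallest that 5 arrays against 5 can give). The groups did not overlap, and SCC replicate 2 was the SCC array closest to WT. Without SCC replicate 2 the difference was -1.37.

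The remaining probes were dim, and neither passed. A_52_P184304 for NM_134448 differed by -0.22 (SE 0.25, adjusted p 0.469) and A_52_P445253 for NM_133833 by -0.21 (SE 0.18, adjusted p 0.352). SCC replicate 5 was above every other array of either group on both, at 8.14 and 6.76. Without it the differences were -0.46 (adjusted p 0.0161) and -0.37 (adjusted p 0.0156). The mean of all 5 Dst probes was higher in SCC by 2.18, opposite in sign to the representative probe.

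**Figure D2:**
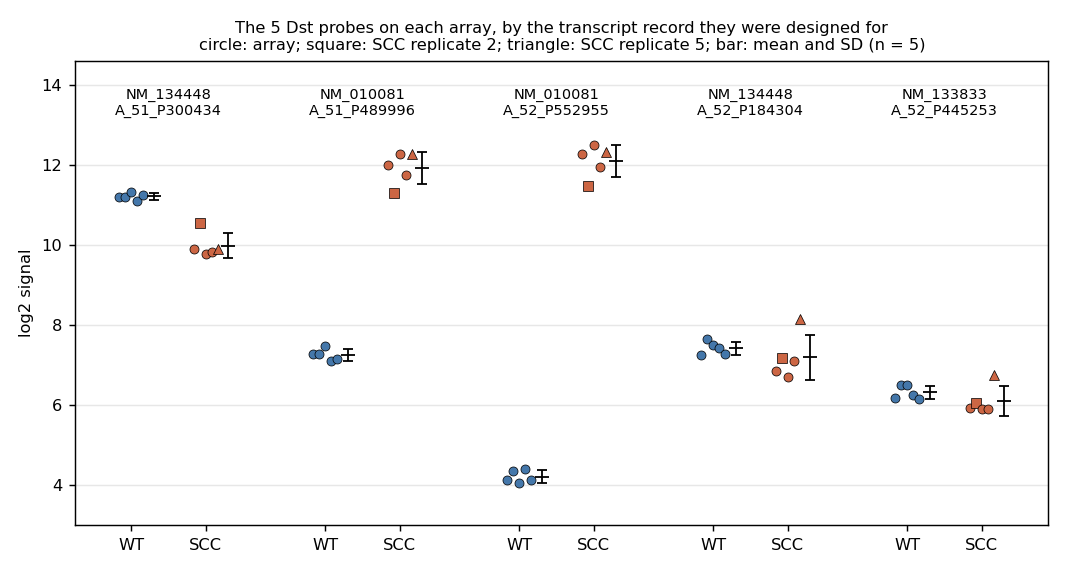
Log2 signal of the 5 Dst probes on the 5 WT and 5 SCC arrays, labelled by transcript record and probe, with the mean and SD (n = 5). The pair annotated to NM_010081 is higher in SCC by 4.67 and 7.89, the latter with WT near the background (5.04 after normexp correction). A_51_P300434 is lower by 1.23, and both dim probes have SCC replicate 5 (triangle) on top.

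Among the receptors, the chain that marks the hemidesmosome rose and its partner scarcely moved. Itgb4 encodes integrin beta 4, whose long cytoplasmic tail binds plectin. Its representative probe was at 11.36, 10.57, 11.10, 10.52 and 11.68 in WT and at 14.93, 14.42, 14.66, 14.63 and 14.66 in SCC. The difference was 3.61 (SE 0.22, adjusted p 4.04e-06), or 12.2-fold with a 95% confidence interval of 8.65 to 17.3. The WT arrays spread over more than 1 log2 unit, and the SCC arrays, replicate 2 included, lay close together well above them. The second Itgb4 probe gave 3.65 (SE 0.25).

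Itga6 encodes integrin alpha 6, which pairs with beta 4 in hemidesmosomes and with beta 1 elsewhere. It was at 13.21, 13.29, 13.55, 12.97 and 13.20 in WT and at 13.52, 13.39, 13.55, 13.54 and 13.52 in SCC. The difference of 0.26 (SE 0.11, 95% confidence interval 0.013 to 0.51) did not pass, with an adjusted p of 0.0757. WT replicate 3 reached the SCC level, so the groups overlapped. The second Itga6 probe gave 0.29 and did pass (adjusted p 0.0354), and all 5 SCC arrays were above the WT mean on either probe.

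Itga3 encodes integrin alpha 3, a laminin-332 receptor that pairs with beta 1 in focal contacts rather than hemidesmosomes. It was at 11.81, 11.68, 11.82, 11.59 and 11.68 in WT and at 11.22, 11.24, 10.89, 11.06 and 11.08 in SCC. It fell by 0.62 on the log2 scale (SE 0.095, adjusted p 0.000567), and the groups did not overlap. A second probe, A_51_P515056, fell by 0.71 (adjusted p 0.000799). The third and dimmest, A_51_P230405, went the other way by 0.76 (SE 0.22, adjusted p 0.0157) with overlapping groups. On it SCC replicate 2 was at 7.00, within the WT range of 6.83 to 7.16, and the other 4 SCC arrays were at 7.58 to 8.17. Itgb1, the beta 1 chain and no member, fell by 0.55 (SE 0.10, adjusted p 0.0015), and by 0.35 with slide as a block (adjusted p 0.226). A second Itgb1 probe differed by -0.12 (SE 0.085, adjusted p 0.255) with overlapping groups.

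The laminin-332 chains among the members, Lama3 and Lamb3, differed by less than 2-fold. Lama3, the alpha 3 chain that carries the integrin binding site, was at 11.48, 11.12, 11.38, 11.40 and 11.09 in WT and at 11.03, 10.60, 11.02, 10.91 and 10.79 in SCC. It fell by 0.42 on the log2 scale (SE 0.12, adjusted p 0.0155), and the groups stood just apart. The dim second probe of Lama3 gave -0.48 (SE 0.32, adjusted p 0.229), with SCC replicate 5 at 4.31 and the other SCC arrays at 5.76 to 6.28. On that probe the difference without SCC replicate 5 was -0.15.

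Lamb3, the beta 3 chain, was at 10.82, 10.97, 11.19, 11.05 and 10.76 in WT and at 11.59, 11.18, 11.44, 11.07 and 11.43 in SCC. It rose by 0.38 (SE 0.13, adjusted p 0.0322), and SCC replicates 2 and 4 lay within the WT range. It no longer passed in 6 of 10 fits that left out 1 array: without WT replicate 1 (0.35, adjusted p 0.0743), 2 (0.39, adjusted p 0.0608) or 5 (0.33, adjusted p 0.077), and without SCC replicate 1 (0.32, adjusted p 0.0762), 3 (0.36, adjusted p 0.0701) or 5 (0.36, adjusted p 0.0508).

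The collagens of the junction rose, and SCC replicate 2 was low in each. Col17a1 encodes collagen XVII, also known as BPAG2, the transmembrane collagen of the hemidesmosome. It was at 9.82, 9.50, 9.69, 10.22 and 9.75 in WT and at 14.07, 12.23, 14.13, 13.77 and 13.94 in SCC. The difference was 3.83 (SE 0.34, adjusted p 2.67e-05), or 14.2-fold with a 95% confidence interval of 8.36 to 24.3. SCC replicate 2 was 2.44 above the WT mean and the other 4 SCC arrays together 4.18 above it. The second Col17a1 probe gave 3.90 (SE 0.36).

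Col7a1 encodes collagen VII, the protein of the anchoring fibrils. It was at 10.93, 10.83, 11.10, 11.01 and 11.35 in WT and at 13.51, 12.00, 13.48, 13.41 and 13.46 in SCC. The difference was 2.13 (SE 0.29, adjusted p 0.000252), or 4.38-fold with a 95% confidence interval of 2.81 to 6.81. The groups did not overlap. SCC replicate 2 was 0.96 above the WT mean, and the other 4 together were 2.42 above it.

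Plec encodes plectin, which links the beta 4 tail to keratin filaments and serves many other junctions. Its representative probe, for NM_201389, was at 11.02, 11.14, 11.23, 11.07 and 11.06 in WT and at 11.64, 11.27, 11.70, 11.83 and 11.78 in SCC. It rose by 0.54 (SE 0.12, adjusted p 0.0037), with SCC replicate 2 only just above the highest WT array. The other Plec probes differed by 0.058 (SE 0.16, adjusted p 0.778) and 0.14 (SE 0.19, adjusted p 0.571), with overlapping groups.

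**Figure D3:**
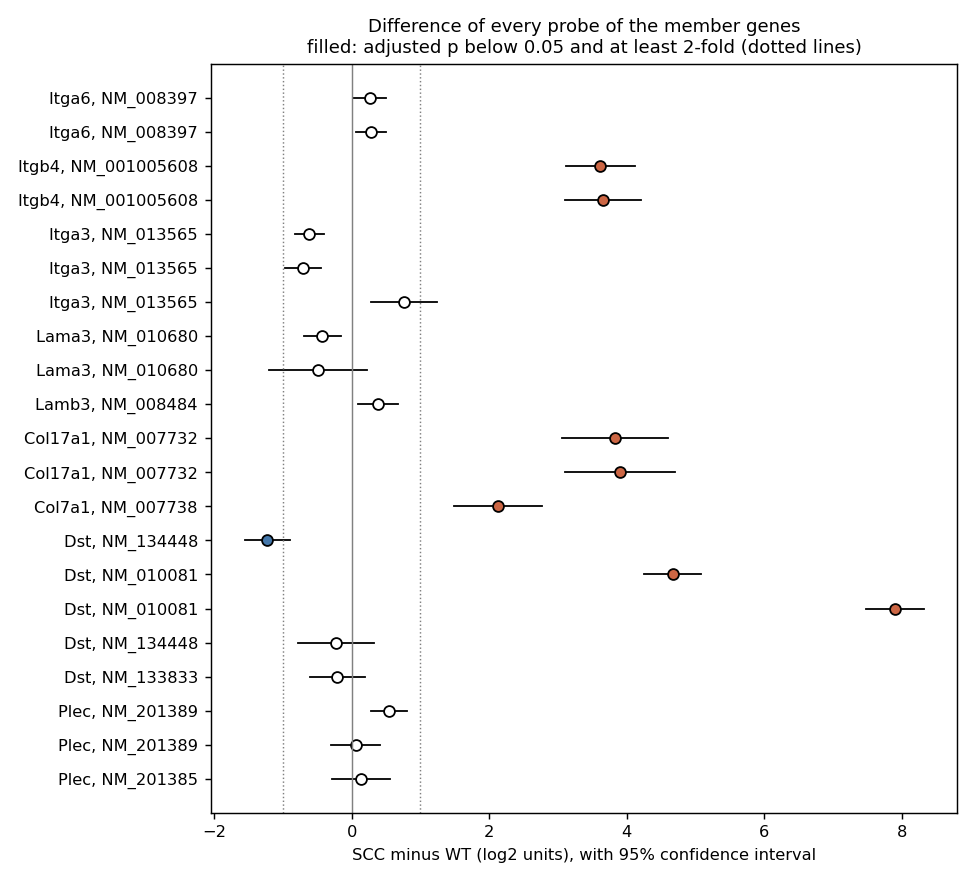
Difference SCC minus WT (log2 units) with its 95% confidence interval for all 21 member probes, labelled by gene and transcript record, filled where the probe was called. Probes of Itgb4 and Col17a1 fall together between 3.61 and 3.90, and those of Dst spread from -1.23 to 7.89, the latter with WT near the background.

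Over all 21 probes, 8 were called, against 22.9% of the 30374 tested probes: 7 higher (background 9.92%) and 1 lower (background 13.0%). Of all tested probes 3014 were called higher and 3940 lower, and with 75th percentile scaling 3504 higher and 3080 lower. On the adjusted p alone 15 of 21 passed, against 49.0% of tested probes, with 11 higher (background 22.4%) and 4 lower (background 26.6%). The groups did not overlap for 12 of 21, against 37.4%. SCC replicate 2 was the lowest SCC array on 14 of the 21. The mean of the 9 members, each as a change from its own WT mean, was -0.13 to 0.11 on the WT arrays, 0.61 on SCC replicate 2 and 0.96 to 1.11 on the other 4 SCC arrays. That array also had the lowest sum of basal and squamous markers, and its part in the lower values was not tested.

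Slide was looked at as a batch, since slide 1 held WT arrays only (replicates 1 to 4), slide 2 held WT replicate 5 with the first 3 SCC replicates, and slide 3 held SCC replicates 4 and 5 only. On slide 2, the one slide with both groups, the differences of all 9 members had the same sign as over all arrays: 3.72 for Col17a1, 2.99 for Itgb4, 1.65 for Col7a1, 0.64 for Lamb3, 0.48 for Plec, 0.29 for Itga6, -0.20 for Lama3, -0.56 for Itga3 and -1.18 for Dst. With slide as a fixed block, 3 of 9 members passed the adjusted p, where 14.9% of the 15582 tested genes did. They were Itgb4 (adjusted p 0.00454), Col17a1 (adjusted p 0.0158) and Dst (adjusted p 0.0355). Col7a1 (adjusted p 0.0809), Itga3 (0.0977), Lamb3 (0.114), Plec (0.159) and Lama3 (0.597) no longer did. That fit rests on a single WT array.

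The windows of the other members are given by what a search found in them. The promoter table held 5 of the 9 members, with 8 starts in all. The window of Col17a1, whose probes rose by more than 3 log2 units, is shown because it was the only one of the 8 with the TATA box letters TATAAA, here in capitals.

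Col17a1, chr19:47692043-47692292, minus strand, GRCm38.p6: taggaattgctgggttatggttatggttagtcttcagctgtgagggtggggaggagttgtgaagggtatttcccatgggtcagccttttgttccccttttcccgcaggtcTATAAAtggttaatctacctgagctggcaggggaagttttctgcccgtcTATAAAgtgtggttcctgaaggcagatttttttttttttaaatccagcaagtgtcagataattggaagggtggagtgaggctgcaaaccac

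The matches lay 140 and 91 bases before the start, and the window was 46.0% G and C. Whether either match acts as a TATA box, or has a part in the rise, was not tested. Of all windows in the table, 12.4% held TATAAA on either strand. The AP-1 letters TGANTCA (6.75% of all windows) and the paired site of the p53 family (9.19%) were in none of the 8 member windows. Besides the outer start of Dst, the GC box was in the window of Col7a1 (1 match) and in both windows of Itga3 (3 and 1 matches).

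Members were then compared in pairs within each array, as the difference of their log2 signals, with p-values adjusted over the 5 pairs. Itgb4 relative to Itga6 was higher in SCC by 3.35 (SE 0.23, exact two-sided permutation p 0.00794, adjusted 0.00992), so that the beta 4 and alpha 6 transcripts did not change in step. Lamb3 relative to Lama3 was higher by 0.81 (SE 0.12) and Plec relative to Dst by 1.77 (SE 0.24), the latter by their representative probes. Itga3 relative to Itga6 fell by 0.88 (SE 0.11). These 3 pairs had the same permutation p as the first, and in all 4 the groups did not overlap. The direction of Plec relative to Dst depends on the Dst probe, since both NM_010081 probes rose by more (4.67 and 7.89) than Plec (0.54).

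Col17a1 relative to Itgb4, the genes of the transmembrane collagen and its receptor chain, differed by 0.22 (SE 0.40, 95% confidence interval -0.71 to 1.15, exact permutation p 0.595). The interval allows a gap of up to about 1 log2 unit either way. SCC replicate 2 was at -2.19 for this pair and the other SCC arrays at -0.86 to -0.53.

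**Figure D4:**
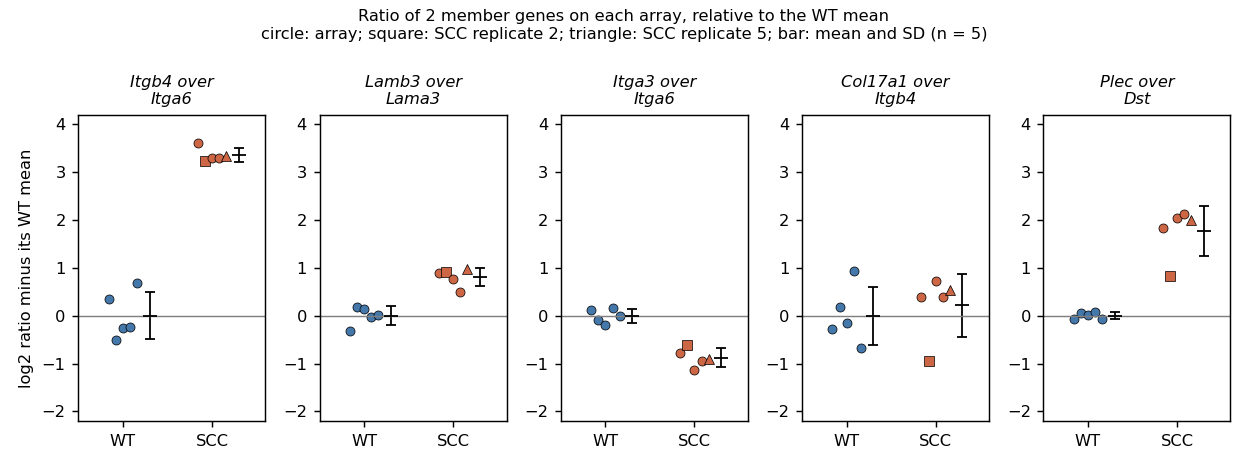
Log2 ratio of 2 member genes on each array, with the mean over the WT arrays set to 0, for the 5 WT and 5 SCC arrays (mean and SD, n = 5). Itgb4 over Itga6 lies 3.35 higher in SCC, Itga3 over Itga6 lies 0.88 lower, and Col17a1 over Itgb4 overlaps between groups.

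The genes around the complex were read from 8 lists that hold 84 genes, of which 77 were tested. Of these, 16 were called higher and 17 lower, where 24.9% of tested genes were called either way. Their median difference was -0.34.

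Keratin partners and other plakins were the groups with the highest medians. The basal cell keratins to which hemidesmosomes attach were all called higher: Krt5 by 11.35 (SE 0.41), Krt14 by 10.40 (SE 0.55) and Krt15 by 5.46 (SE 0.29). After normexp correction these differences were 9.76, 9.13 and 3.97. The membrane partners in the same list fell by less than 2-fold, with Cd151, the tetraspanin bound to laminin-binding integrins, at -0.66 (adjusted p 0.0003) and Erbin at -0.60 (adjusted p 0.0236). Of the 5 plakins outside the members 4 were called higher. Among them Evpl and Ppl, which encode the cornified envelope proteins envoplakin and periplakin, rose by 3.47 (SE 0.66) and 1.57 (SE 0.39), and Dsp, the desmosomal desmoplakin, rose by 3.07 (SE 0.28). Macf1, a cytoskeletal crosslinker, fell by 1.31 (SE 0.11). SCC replicate 2 was at 12.64 for Evpl, with the other SCC arrays at 15.92 to 16.39, and at 12.45 for Ppl, level with the lowest WT array. Without it Evpl was higher by 4.18, Ppl by 1.98 and Krt14 by 10.98. With slide as a block Evpl (2.50, adjusted p 0.203) and Ppl (1.22, adjusted p 0.293) did not pass.

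The laminin chains outside the members and the other basement membrane genes had medians below 0. Of 7 laminin chains outside the members, 1 was called higher and 1 lower (median -0.75). Lama2, the alpha 2 chain, fell by 1.51 (SE 0.34). Lama1, the alpha 1 chain, was higher by 2.17 (SE 0.50), by 0.65 after normexp correction and by 3.92 with slide as a block (adjusted p 0.0135), and only 3 of 5 WT arrays had it well above background. Of 15 other basement membrane genes, 1 was called higher and 6 lower (median -0.87). Fras1 fell by 3.73 (SE 0.58, 1.65 after normexp correction and 3.13 without SCC replicate 5), Npnt by 2.47 (SE 0.35) and Col4a3 by 2.44 (SE 0.30), while Col15a1 rose by 1.18 (SE 0.21). Col15a1 was higher by 0.81 after normexp correction, under 2-fold. With slide as a block Lama2 (-1.25, adjusted p 0.255), Fras1 (-3.01, 0.054), Npnt (-1.73, 0.113) and Col15a1 (1.21, 0.101) kept their direction and did not pass.

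Of 20 integrin chains outside the members, 4 were called higher and 5 lower (median -0.38). Those that rose most are known from leukocytes: Itgam by 2.50 (SE 0.63), Itgax by 1.80 (SE 0.47) and Itgb2 by 1.11 (SE 0.34). On SCC replicate 2 all of them lay within or below the WT range, and without it Itgam was higher by 3.16, Itgax by 2.30 and Itgb2 by 1.47. The leukocyte markers went both ways, with 2 of 5 called higher and 1 lower (median -0.079). They summed to 14.00 to 14.40 in WT and 13.58 to 15.63 in SCC, lowest on SCC replicate 2. Itga8, Itga11 and Itga1, which are known from mesenchymal cells among others, fell by 3.36 (SE 0.43), 2.85 (SE 0.40, and 1.97 after normexp correction) and 2.09 (SE 0.25). Of 5 smooth muscle markers 3 were called lower, with overlapping summed ranges (14.89 to 15.51 in WT and 14.48 to 15.10 in SCC). The fibroblast markers went both ways. With slide as a block none of these 6 passed (adjusted p 0.051 to 0.332), at differences of 2.43 for Itgam, 1.67 for Itgax, 1.01 for Itgb2, -2.99 for Itga8, -2.16 for Itga11 and -1.44 for Itga1. The part of these marker shifts was not tested.

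Of 16 focal adhesion linkers 1 was called higher and 4 lower (median -0.73). Fermt1, the epithelial kindlin, rose by 3.75 (SE 0.28, and 2.24 after normexp correction), whereas the more widely expressed kindlin Fermt2 fell by 1.84 (SE 0.14). Lims2 and Zyx, both linkers at focal contacts, fell by 2.44 (SE 0.15) and 1.15 (SE 0.12). With slide as a block Zyx was at -0.96, under 2-fold (adjusted p 0.0326). Among 4 other laminin receptors Sdc1, the epithelial syndecan, rose by 1.72 (SE 0.11). Among 5 proteases that can cut laminin-332 or collagen XVII, Mmp14, a membrane-bound metalloproteinase, rose by 2.24 (SE 0.17), and no other was called.

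**Figure D5:**
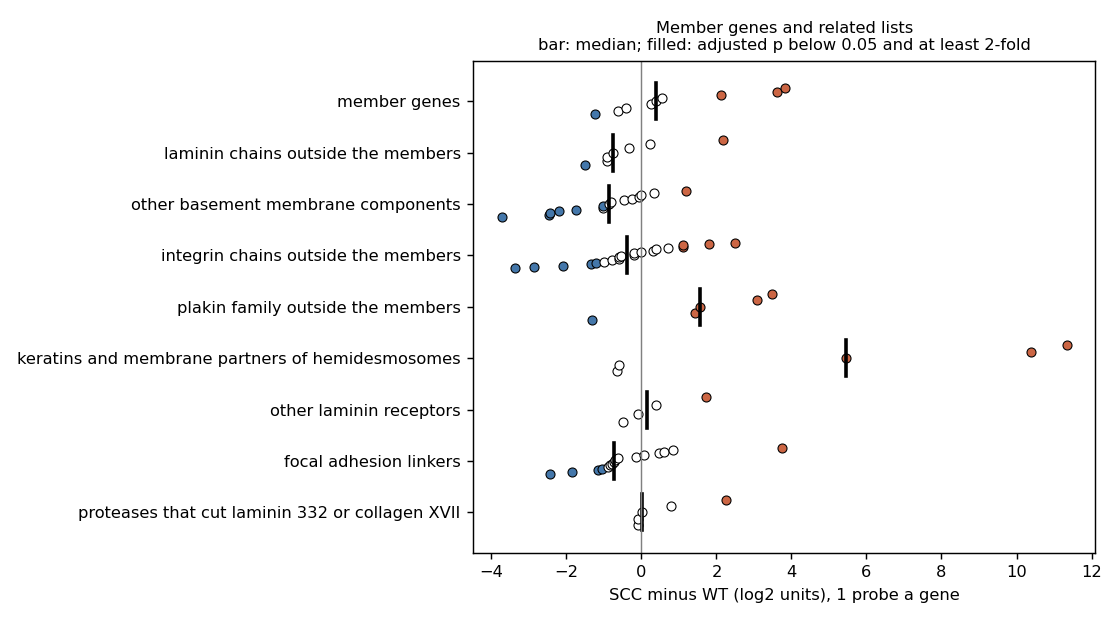
Difference SCC minus WT (log2 units) of the 9 member genes and of the genes of 8 related lists, 1 probe a gene, with the median of each list as a bar and called genes filled. The plakins (median 1.57) and the keratins with membrane partners (median 5.46) lie highest, and the basement membrane genes (median -0.87) lowest.

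Ranked by difference among the 15582 tested genes, Col17a1 was at position 264, Itgb4 at 293 and Col7a1 at 773, while Dst was at 13815 by its representative probe. Taking the mean change of the 9 members on each array as the pattern, the genes most like it over the 10 arrays were Fam110c (Pearson's r 0.993), Gjb2 (0.992), Lypd3 (0.992), Prickle3 (0.992) and Serinc2 (0.991). The arrays fall into 2 groups, so any gene that separates them cleanly scores high, and r is given as a description.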

How the data were processed

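RNA of 5 WT lungs and 5 SCC was hybridised to one-colour Agilent arrays. Per the file headers, the authors extracted the scans with Agilent Feature Extraction version 12, and the deposited scanner files hold a background-subtracted processed intensity per spot. The authors also deposited a matrix of quantile-normalized log2 values, used as an alternative (r with the values here at least 0.9999 on each array). Control and outlier spots were dropped, log2 intensities averaged per probe and quantile-normalized. Probes above background (in at least 0.5 of their spots) on at least 4 of 5 arrays of a group were tested, 30374 in all, with limma 3.58.1 in R 4.3.3 (lmFit, eBayes, no covariates) and Benjamini-Hochberg adjustment over all of them, and tested on simulated data. The authors' methods name a one-way analysis of variance, run as an alternative. Symbols came from RefSeq accessions (GRCm38.p6): 28215 probes matched. The array files use another build, so no probe coordinates are given. The floxed gene itself was not checked, since no probe was paired with it. Members, lists and named genes (of each list, up to 3 called genes with the largest rise and 3 with the largest fall; Itgb1, Cd151 and Erbin were added after their values were seen) were chosen with earlier results of these data known. The values of 1 list gene are not reported here, and it was left out of its list. Quantile normalization put the median difference of tested probes at -0.090 and 75th percentile scaling at 0.032, a shift of 0.12. The number of arrays limits precision.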

Additional observations from a re-analysis of the deposited data

Results flagged for a closer look

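Gaps were examined in 52 groups of 5 arrays, each a member probe or a pair of members in 1 group. In 9 of them the highest or lowest array lay so far from its nearest neighbour that the gap exceeded 0.71 of the group's range. Chance gives such a gap in about 1 in 20 independent groups. These groups reuse the same arrays, and the pairs reuse the member probes, so the 9 gaps cannot be set against that rate. Of these 9 gaps, 6 were on SCC replicate 2 and 2 on SCC replicate 5.

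Of the tumours, replicate 2 had the lowest value for Itga6 (13.39 against 13.52 on the next, gap 0.791 of the range), Col17a1 (12.23 against 13.77, gap 0.808) and Col7a1 (12.00 against 13.41, gap 0.932). It was the highest for the representative Dst probe (10.54 against 9.91, gap 0.815). In the pairs it was lowest for Col17a1 relative to Itgb4 (gap 0.799) and for Plec relative to Dst (gap 0.783). For 5 of these the array was nearer the WT level than the other tumours, and the exception is the pair Col17a1 and Itgb4, whose groups overlapped. SCC replicate 2 also had the lowest sum of basal and squamous markers (16.39), and its part in these gaps was not tested.

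SCC replicate 5 was low for the dim Lama3 probe (4.31 against 5.76, gap 0.736) and high for the dim Dst probe of NM_133833 (6.76 against 6.05, gap 0.815). SCC replicate 1 was high for Itgb4 relative to Itga6 (gap 0.721).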

How the results depend on the processing

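Itgb4, Col17a1 and Col7a1 were higher and the representative Dst probe lower under each alternative run, other than those that took another Dst probe. Over 10 fits that each left out 1 array, the differences ranged from 3.48 to 3.77 for Itgb4, 3.71 to 4.18 for Col17a1, 2.04 to 2.42 for Col7a1, -1.37 to -1.17 for Dst, 0.49 to 0.64 for Plec, -0.65 to -0.57 for Itga3 and -0.48 to -0.36 for Lama3, all still passing. Lamb3 ranged from 0.32 to 0.45 and no longer passed in 6 of them. Itga6 ranged from 0.19 to 0.34 and passed in 2, without WT replicate 3 (0.34) and without SCC replicate 2 (0.29). It also passed with normexp correction (0.26, adjusted p 0.0472), with its second probe (0.29) and with the mean of its probes (0.27).

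Slide as a fixed block gave 2989 called probes in place of 6954 and 15 called list genes in place of 33, and Itga3 (-0.56), Lama3 (-0.20), Lamb3 (0.64), Col7a1 (1.65) and Plec (0.48) no longer passed, which left 2 members called higher and 1 lower. Within slide 2, where WT is 1 array assumed to vary like SCC, limma called 0 probes, 0 members higher, 0 members lower and 0 list genes, while 5835 probes, 3 members and 28 list genes had an unadjusted p under 0.05. There Itgb4 (2.99), Itga3 (-0.56), Lama3 (-0.20), Lamb3 (0.64), Col17a1 (3.72), Col7a1 (1.65), Dst (-1.18) and Plec (0.48) no longer passed, with Itgb4 relative to Itga6 at 2.70. As a random block slide had a correlation of -0.017 and left each member on its side of the threshold.

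With another probe, or the mean of a gene's probes, Dst reversed to 4.67, 7.89 and, as the mean, 2.18, or was no longer called (-0.22 and -0.21). With the mean, 4 members were called higher and 0 lower, and the share of all genes called in that fit is not given here. Itga3 reversed to 0.76 on its dim probe and was -0.19 as a mean. Lama3 was -0.48 and, as a mean, -0.45, and Plec was 0.058, 0.14 and, as a mean, 0.25, none of which passed. Normexp correction gave 3969 called probes. On the adjusted p alone 14878 probes, 58 list genes, 5 members higher and 3 lower passed. The cause of these changes was not tested.

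The replicate numbers shared by both groups do not pair the samples (r of same-numbered deviations -0.10 to 0.0087). With the number as a replicate block Lamb3 (0.38, adjusted p 0.0875) no longer passed, and no other member changed sides. The probes called were 6571. The rest of the alternatives, 75th percentile scaling, the deposited matrix, no filter, a stricter filter, array weights and the methods' t-test among them, kept each member on its side of the threshold. Signal near background limits the Dst probe A_52_P552955, which was well above it on 3 of 5 WT arrays.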
